A study of Mus musculus with 6 samples.

Results

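The meiotic crossover genes *Msh4*, *Msh5*, *Mlh3*, *Rnf212*, *Tex11*, *Ccnb1ip1*, *Cntd1* and *Cdk2* were followed in E15.5 mouse ovaries after in utero exposure to panobinostat (PB), an inhibitor of histone deacetylases. The members were chosen by gene name, and the counts of all 47 transcripts that carry one of the 8 names were summed per gene, out of 35974 gene names and 114412 transcripts in the series. All embryos were of the C57Bl6j strain. Pregnant females received 5 mg/kg PB by oral gavage from E6.5 until E15.5. The interval is given as every 2 days in the methods and as daily in the labels. Control females received the vehicle, DMSO and water. Each group comprised 3 pools of whole ovaries, numbered control 1 to 3 and PB 1 to 3, and a pool held 4, 6 to 8 or at least 8 ovaries depending on the source. A pool contains germ cells and somatic cells, and the design text calls every library, controls included, a library of an exposed mouse. The polyA RNA was sequenced as stranded libraries with 97165644 to 125985399 counts per pool. No sequencing batch was named in the sources used here.

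Crossovers are the reciprocal exchanges between homologous chromosomes that hold them together until the first meiotic division. In the fetal ovary, germ cells enter meiosis at mid-gestation and repair programmed DNA double-strand breaks during prophase I, and a few of the repair intermediates are selected to become crossovers. *Msh4* and *Msh5* encode the subunits of MutSγ, a clamp that stabilises recombination intermediates. *Tex11* encodes a partner of this machinery related to yeast Zip4. *Rnf212* and *Ccnb1ip1*, the gene of HEI10, encode RING finger proteins that select the sites by SUMO and ubiquitin ligase pathways. *Mlh3* encodes an endonuclease that acts at the mature crossover sites. *Cntd1* encodes a cyclin-like protein needed for crossover maturation, and *Cdk2* encodes the kinase found at these sites, which also drives the cell cycle of dividing cells.

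Promoter sequence was available for 7 of the 8 members in the RefSeq table of the GRCm38.p6 build, and *Tex11* had no entry. The windows of *Ccnb1ip1*, *Cntd1* and *Cdk2* are shown from position -250 to the base before the annotated start, 5′ to 3′ on the strand of the gene, because *Ccnb1ip1* and *Cntd1* had closely similar profiles over the pools and *Cdk2* had another. They are chr14:50795729-50795978 on the minus strand for *Ccnb1ip1*, chr11:101278953-101279202 on the plus strand for *Cntd1* and chr10:128705052-128705301 on the minus strand for *Cdk2*. Capitals mark the letters searched on both strands, namely TCCCGC (E2F), CCAAT (NFY) and CNCCTCAG (STRA8).
Ccnb1ip1: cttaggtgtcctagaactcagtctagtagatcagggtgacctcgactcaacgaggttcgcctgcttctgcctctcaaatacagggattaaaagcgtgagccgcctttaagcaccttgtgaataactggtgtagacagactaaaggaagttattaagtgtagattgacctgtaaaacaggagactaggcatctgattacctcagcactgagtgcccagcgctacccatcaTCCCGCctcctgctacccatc
Cntd1: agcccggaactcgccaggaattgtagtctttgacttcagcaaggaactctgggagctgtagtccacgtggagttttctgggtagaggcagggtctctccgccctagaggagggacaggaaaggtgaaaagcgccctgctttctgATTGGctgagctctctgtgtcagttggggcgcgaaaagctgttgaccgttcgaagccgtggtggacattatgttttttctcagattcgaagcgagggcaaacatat
Cdk2: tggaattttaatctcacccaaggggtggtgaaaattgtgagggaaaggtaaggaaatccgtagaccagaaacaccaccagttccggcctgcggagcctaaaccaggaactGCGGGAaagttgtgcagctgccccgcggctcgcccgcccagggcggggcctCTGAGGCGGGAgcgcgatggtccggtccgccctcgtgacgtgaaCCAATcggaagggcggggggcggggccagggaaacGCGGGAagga

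In windows of 300 bases around the annotated start, the STRA8 letters were present in *Cdk2* and *Msh5*, and in 7.94% of all 32851 promoters of the table. STRA8 is the retinoic acid-induced factor that turns on meiotic genes. The letters of E2F, a family of cell cycle regulators, were present in *Rnf212*, *Cdk2*, *Ccnb1ip1* and *Msh5* and in 19.98% of all promoters. These letters contain a CG, and the windows of these genes held 13 to 27 CG, against a median of 7 over all promoters. A comparison with promoters of similar CG content was not made. In *Cdk2*, 1 of the E2F matches overlapped the STRA8 match. The NFY letters were present in *Rnf212*, *Cdk2*, *Cntd1*, *Mlh3* and *Msh5* and in 37.4% of all promoters. The CRE letters TGACGTCA were found in 0 of the 7 windows and in 1.79% of all promoters. *Msh4* had 0 of the 4 motifs, and the near edge of its window lies 997 bases from the start of its most abundant transcript. The most abundant *Rnf212* transcript starts 87 bases upstream of the annotated start. The E2F match of *Rnf212* therefore lies within the first exon of that transcript. A match describes the letters of the window only.

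All 8 genes were detected in every pool, with 168 counts for *Rnf212* in PB 2 as the lowest value and 7961 counts for *Tex11* in PB 3 as the highest. To compare levels between genes, counts were divided by transcript length and scaled to the same total in each pool (TPM-like). On this scale, *Cdk2* was the highest of the 8 genes in control, at 35.0 ± 0.863 (SD, n = 3), followed by *Tex11* at 22.3 ± 2.52. *Ccnb1ip1* (8.42 ± 1.79), *Mlh3* (8.27 ± 0.207) and *Msh5* (8.27 ± 0.263) came next, and neighbouring genes among these 3 had overlapping ranges over the control pools. *Cntd1* stood at 6.02 ± 1.13, *Msh4* at 2.80 ± 0.233 and *Rnf212* at 1.96 ± 0.229, each below the range of its neighbour. In PB, *Cdk2* (40.7 ± 3.15) and *Tex11* (29.8 ± 10.3) were again first and second without overlapping each other or the next gene, and *Msh4* (3.89 ± 1.38) and *Rnf212* (2.58 ± 1.15) were again last. The ranges of the genes in ranks 3 to 8 overlapped from each gene to the next in the PB pools. The level of *Tex11* included a short antisense transcript, and without it the level was 20.3 ± 2.81 in control and 27.7 ± 10.1 in PB.

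Within a gene, pools were compared by CPM, the counts scaled to the adjusted library total of the pool. The PB pools did not form one level for most of these genes. In *Msh4*, *Msh5*, *Rnf212*, *Tex11*, *Ccnb1ip1* and *Cntd1*, PB 2 was the lowest of all 6 pools, while PB 1 and PB 3 were above every control pool. Over all 19435 genes tested, 7.24% showed both features, 20.6% had PB 2 as the lowest pool and 17.7% had PB 1 and PB 3 above every control. The other two genes, *Mlh3* and *Cdk2*, also had PB 1 and PB 3 above every control, but PB 2 was above the controls in *Mlh3* and within their range in *Cdk2*. The highest PB pool was 1.94 to 2.53 times the lowest in the 6 genes and 1.04 to 1.08 times in *Mlh3* and *Cdk2*. Among control pools, the same ratio was 1.06 to 1.42 and 1.06 to 1.07, respectively. The plot of centred levels shows both groups of genes.

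**Figure D1:**
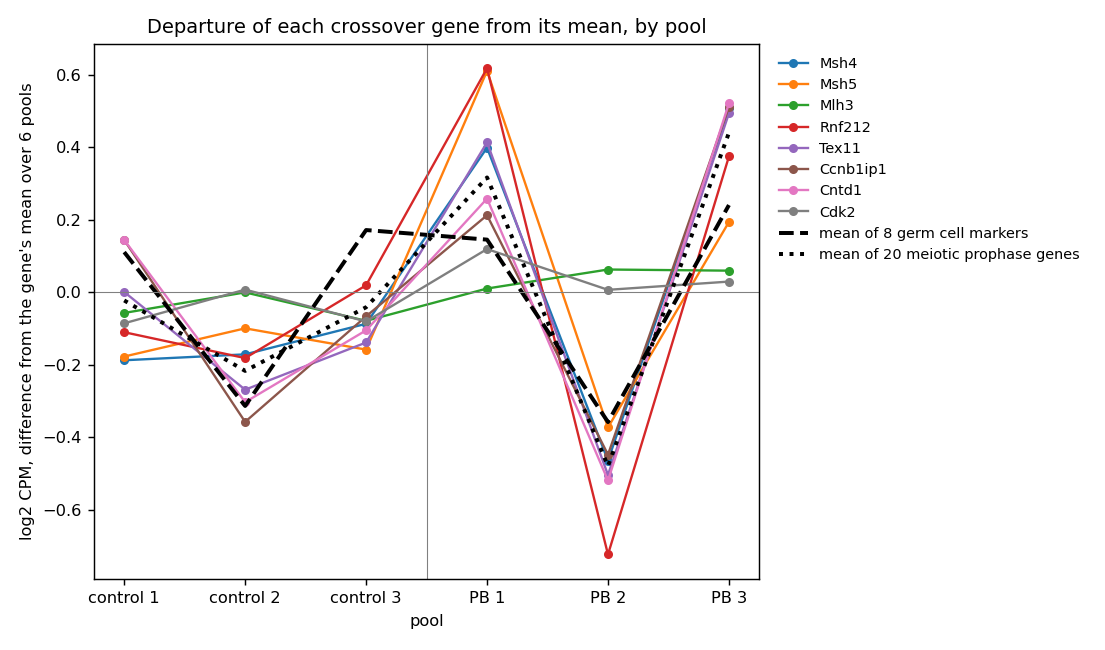
Level of each crossover gene in each pool as the difference from its own mean over 6 pools (log2 CPM), with the mean of 8 germ cell markers (dashed) and of 20 meiotic prophase genes (dotted). Lines join pools for legibility only. PB 2 is the lowest point of 6 of the genes, whereas the lines of *Mlh3* and *Cdk2* are the flattest.

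None of the 8 genes was called between control and PB by the edgeR quasi-likelihood test, which required FC ≥ 2 and FDR ≤ 0.05. The background was low as well, since 0.0154% of the genes tested were called, 3 of 19435. The FDR of the members was 0.888 to 0.900. Their unadjusted p was under 0.05 in 0 of 8 cases, against 4.46% of all genes, and DESeq2 called 0 of them (0.0539% of all genes) and gave 0 with an unadjusted p under 0.05 (3.65% of all genes). All 8 fitted log2 fold changes were above 0, which held for 50.7% of all genes, and their median was 0.26 against 0.0020 for all genes, with quartiles of -0.097 and 0.10. The groups overlapped in 7 of the 8 genes, in 6 of them through PB 2 below the controls.

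*Msh4* (chr3:153857141-153906138, minus strand) had levels of 6.20, 6.27 and 6.65 CPM in control 1, 2 and 3 and 9.31, 5.12 and 10.04 CPM in PB 1, 2 and 3. The control pools were close together, and the PB pools lay on both sides of them. The fitted log2 fold change was 0.36 with an SE of 0.24 and an edgeR FDR of 0.888. Its 95% interval ran from 0.854-fold to 1.92-fold. *Msh5* (chr17:35028605-35048865, minus strand), its partner in MutSγ, had 15.7, 16.5 and 15.9 CPM in control and 27.1, 13.7 and 20.3 CPM in PB. PB 1 was the highest pool of *Msh5*, whereas PB 3 was the highest of *Msh4*. The log2 fold change of *Msh5* was 0.34 (SE 0.23, FDR 0.888), with an interval of 0.871-fold to 1.85-fold. The ratio of *Msh5* to *Msh4* per length was 2.97 ± 0.152 in control and 3.01 ± 0.525 in PB, and ranged from 2.42 in PB 3 to 3.44 in PB 1. The exact two-sided permutation test of the ratios gave p = 1, where 3 against 3 pools cannot give less than 0.1.

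*Tex11* (chrX:100838648-101059639, minus strand) had 48.7, 40.4 and 44.2 CPM in control and 64.8, 34.3 and 68.5 CPM in PB. PB 2 was again under all control pools and the others above them. Its log2 fold change was 0.33 (SE 0.25, FDR 0.888). Without its antisense transcript, the ratio of *Tex11* to *Msh4* per length was 7.22, 6.95 and 7.11 in PB 1, 2 and 3, although the levels in CPM ranged 2.00 times and 1.96 times over these pools. In control this ratio was 8.19, 6.62 and 6.94 (exact permutation p = 1).

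Of the RING finger genes, *Rnf212* (chr5:108728105-108775114, minus strand) had 2.51, 2.39 and 2.75 CPM in control and 4.16, 1.64 and 3.52 CPM in PB. It had the widest PB spread of the 8 genes, with a coefficient of variation of 42.1% against 7.12% in control. The log2 fold change was 0.28 (SE 0.33, FDR 0.898), and its interval of 0.708-fold to 2.096-fold was the only 1 of the 8 to reach 2-fold. *Ccnb1ip1* (chr14:50789249-50795728, minus strand) had 10.3, 7.28 and 8.91 CPM in control and 10.8, 6.84 and 13.3 CPM in PB. The control pools of *Ccnb1ip1* were themselves spread by 1.42 times, the widest of the 8 genes, and PB 1 exceeded control 1 by little. The log2 fold change was 0.22 (SE 0.25, FDR 0.897).

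*Cntd1* (chr11:101279203-101288701, plus strand) had 10.7, 7.83 and 8.98 CPM in control and 11.6, 6.74 and 13.9 CPM in PB. It followed *Ccnb1ip1* from pool to pool. The ratio of *Ccnb1ip1* to *Cntd1* per length stayed between 1.34 and 1.48 over all 6 pools, a range of 1.11 times, while *Cntd1* itself ranged 2.06 times. Other pairs were less constant. The ratio of *Ccnb1ip1* to *Rnf212* ranged 1.61 times, that of *Mlh3* to *Msh4* 1.96 times and that of *Cdk2* to *Cntd1* 2.04 times. The log2 fold change of *Cntd1* was 0.23 (SE 0.26, FDR 0.900). *Cntd1* shares 440 of its 2228 exon bases with *Becn1* on the opposite strand, an autophagy gene with 76.7 to 84.1 CPM, and the sources used here do not state whether counting used the strand. *Becn1* had a log2 fold change of -0.0082, and its lowest and highest pools were PB 2 and PB 1.

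*Mlh3* and *Cdk2* had closely spaced pools in both groups. *Mlh3* (chr12:85234466-85270645, minus strand) had 31.2, 32.5 and 30.8 CPM in control and 32.7, 33.9 and 33.9 CPM in PB. It was the only member with every PB pool above every control pool, as was the case for 5.1% of all genes, and PB 1 exceeded control 2 by a small margin. The log2 fold change of *Mlh3* was 0.089 (SE 0.051, FDR 0.888), with an interval of 0.977-fold to 1.16-fold. *Cdk2* (chr10:128697939-128705051, minus strand) had 54.1, 57.7 and 54.3 CPM in control and 62.4, 57.7 and 58.6 CPM in PB. PB 2 and control 2 had nearly the same level, so that the groups touched. The log2 fold change of *Cdk2* was 0.10 (SE 0.055, FDR 0.888), with an interval of 0.982-fold to 1.18-fold. These 2 intervals leave out changes of 1.5-fold, whereas those of the other 6 genes do not.

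**Figure D2:**
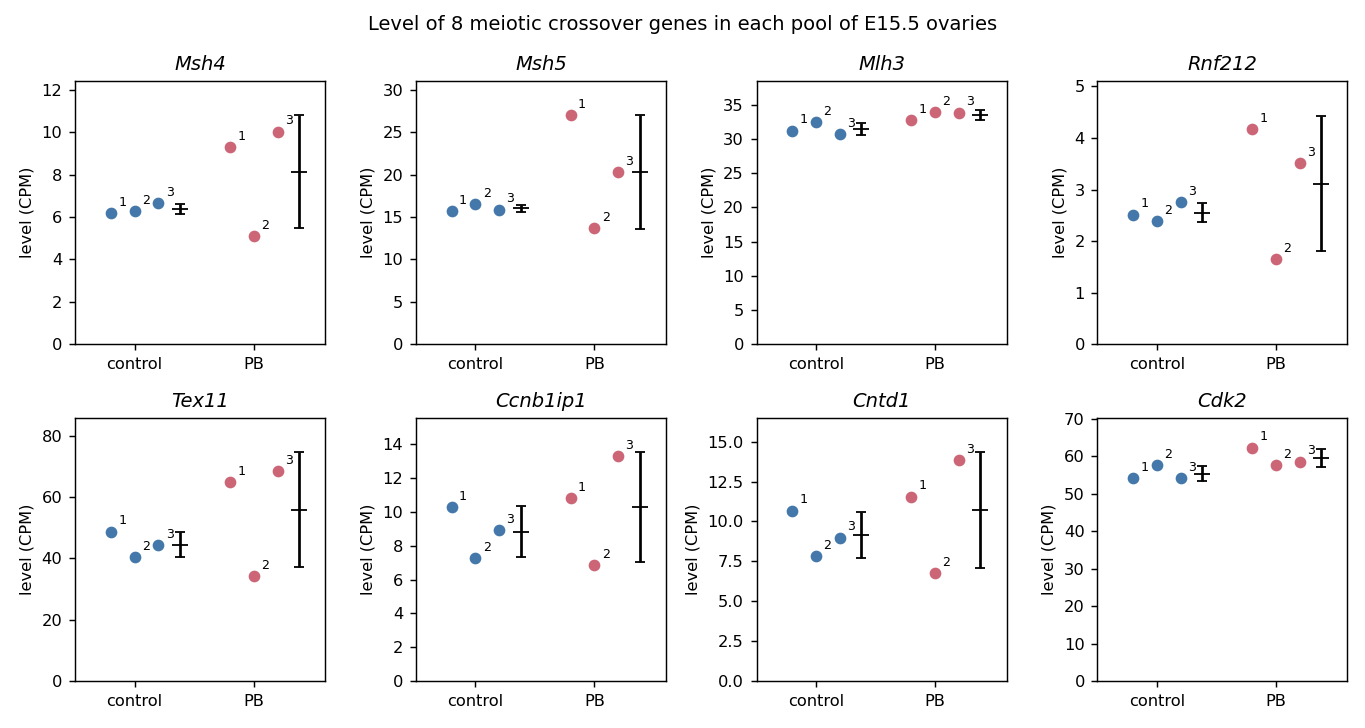
Level of each gene in CPM (vertical axis from 0) in each pool, numbered 1 to 3 in control (blue) and PB (red), with the mean and SD of each group as a black bar. PB pool 2 lies below every control pool in all panels except *Mlh3* and *Cdk2*, where the PB pools lie within 1.08 times of each other.

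The size of the estimates depended on PB 2. Leaving it out, the log2 fold change was 0.60 for *Msh4* (SE 0.089), 0.59 for *Rnf212* (SE 0.14), 0.59 for *Tex11* (SE 0.086) and 0.56 for *Msh5* (SE 0.13). It was 0.47 for *Cntd1* and 0.45 for *Ccnb1ip1*, but 0.13 for *Cdk2* and 0.080 for *Mlh3*. The 6 genes then had an unadjusted p under 0.05, from 0.00059 in *Tex11* to 0.041 in *Ccnb1ip1*, against 12.3% of all genes. PB 2 was singled out from these same values, as the lowest pool of the 6 genes. The p-values without it therefore describe the remaining pools and are not support for a difference. None of the 8 was called, with 0.103 as the lowest edgeR FDR, and 0.0454% of all genes were called. Without PB 3 in place of PB 2, the log2 fold changes of *Ccnb1ip1* and *Cntd1* were -0.0016 and -0.0026. Without PB 1, those of *Msh5* and *Rnf212* were 0.077 and 0.012.

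The other genes of the crossover pathway were read from a list of 24, of which 23 were found and tested (*Spo16* was not matched, and *Shoc1* stands in the files as AI481877). None was called and 0 had an unadjusted p under 0.05 by edgeR. The fitted fold change was above 0 in 14 and below 0 in 9, with a median log2 fold change of 0.013. The pattern of a low PB 2 with high PB 1 and PB 3 was seen in 6 of the 23. *Hfm1*, the meiotic helicase, had 62.7, 65.5 and 64.5 CPM in control and 101, 44.9 and 104 CPM in PB. *Shoc1*, a nuclease-like partner in crossover formation, had 22.9, 22.7 and 25.2 CPM in control and 42.0, 19.3 and 43.1 CPM in PB, and its log2 fold change was 0.56 (SE 0.29, FDR 0.888). *Mcmdc2*, needed for strand invasion, and *Spdya*, an activator of CDK2 at telomeres, had log2 fold changes of 0.42 (SE 0.29) and 0.41 (SE 0.28), both with an FDR of 0.888. *Blm* helicase had a log2 fold change of -0.079 (SE 0.085), *Top3a* of -0.0036 (SE 0.048), the nuclease gene *Gen1* of 0.10 (SE 0.076) and *Mus81* of 0.013 (SE 0.13). *Eme1*, the partner of *Mus81*, had -0.16 (SE 0.083) and *Slx1b*, a nuclease gene, -0.090 (SE 0.078). The lowest was *Fancm*, a translocase that limits crossovers, at -0.17 (SE 0.074, FDR 0.888). Without PB 2, *Hfm1* and *Shoc1* had log2 fold changes of 0.67 (SE 0.044) and 0.85 (SE 0.067), under the required 2-fold. Their edgeR FDR was then 0.017 and 0.022, against 0.888 for both with all pools. PB 2 is the pool that was low in both genes, so these values describe the remaining pools and are not support for a difference. In the fit without PB 2, 0.166% of all genes had an FDR at or under 0.05 at any fold.

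**Figure D3:**
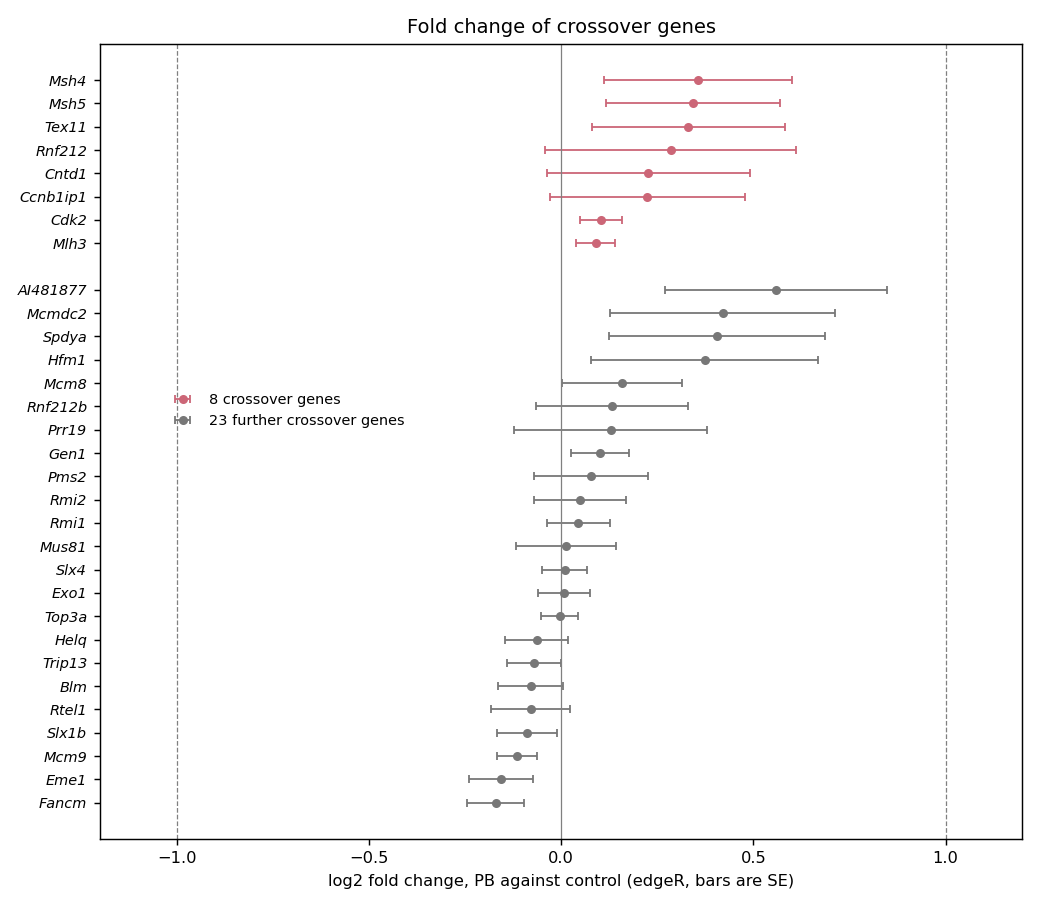
Fitted log2 fold change of PB against control with its SE (horizontal axis) for the 8 crossover genes (red) and the 23 further genes of the pathway (grey), each group ordered by value. Dashed lines mark 2-fold in either direction. All points lie between -0.17 and 0.56, and PB 2 is the lowest pool in the 4 highest grey genes.

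The pool pattern of the crossover genes was shared by other genes of meiotic prophase. From a list of 20 such genes, 17 had PB 2 as the lowest pool with PB 1 and PB 3 above every control, 17 had a fitted fold change above 0, and 0 were called or had an unadjusted p under 0.05. Their median log2 fold change was 0.30. *Sycp3*, of the chromosome axis, had 118, 111 and 116 CPM in control and 172, 81.2 and 184 CPM in PB. *Spo11*, which makes the double-strand breaks, had 5.82, 7.32 and 6.68 CPM in control and 11.3, 5.06 and 11.3 CPM in PB. The 3 prophase genes without the pattern were *Stra8*, *Rec8* and *Msx1*. *Stra8*, which acts at meiotic entry, had 109, 65.6 and 100 CPM in control and 91.5, 55.4 and 113 CPM in PB. *Meioc* and *Ythdc2*, which act at the switch into meiotic prophase, had the pattern. Without PB 2, *Sycp1*, *Sycp2*, *Sycp3*, *Meiob* and *Spata22* had an edgeR FDR of 0.017 to 0.046. Their log2 fold changes were 0.53 to 0.72, under the required 2-fold, and 0 of the 20 genes were called. All of these named genes have the pattern of a low PB 2, so leaving that pool out is not a test of them. In a list of 15 cell cycle genes, chosen as context for *Cdk2*, the pattern appeared in *Ccne2* alone, a cyclin partner of CDK2. *Cdkn1b*, which encodes the CDK2 inhibitor p27, had an unadjusted p of 0.048 by edgeR, and its log2 fold change was 0.19 (SE 0.078, FDR 0.888). The D-type cyclin gene *Ccnd2* had 580 CPM in PB 2 against 149 to 201 CPM in the other pools.

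Germ cell markers moved in part with the crossover genes. The summed level of the 8 germ cell markers *Ddx4*, *Dazl*, *Mael*, *Tdrd1*, *Mov10l1*, *Asz1*, *Gtsf1* and *Dnd1* was 640, 476 and 638 CPM in control and 685, 426 and 713 CPM in PB, so that PB 2 was the lowest pool and control 2 the next. All 8 markers were detected in every pool, and 5 of them had PB 2 as the lowest pool. The full pattern, with PB 1 and PB 3 also above every control, was seen in 4 of the 8, against 7.24% of all genes. In these whole ovaries, fewer germ cells and less RNA per germ cell cannot be told apart. The fitted fold change was above 0 in 4 markers and below 0 in 4, with a median log2 fold change of 0.072 and the highest value in *Gtsf1* (0.32, SE 0.32). The lowest was *Dnd1*, an RNA-binding protein of germ cells, which had a log2 fold change of -0.55 (SE 0.20) with an unadjusted edgeR p of 0.032 and an FDR of 0.888. *Ddx4*, a germ cell helicase, had 77.7 CPM in PB 2 against 124 and 132 CPM in PB 1 and PB 3 and 89.7 to 130 CPM in control. The summed markers of pregranulosa cells, the supporting cells of the ovary, were 1206 to 1307 CPM in control and 1146 to 1269 CPM in PB, with 1241 CPM in PB 2. Those of the mesonephros were 152 to 165 and 143 to 163 CPM, and those of red blood cells were 14802 to 31765 and 18147 to 19973 CPM. None of these summed levels had PB 2 as the lowest pool. The markers of Sertoli cells and the testis pathway summed to 25.6 to 35.4 CPM in control and 25.1 to 27.6 CPM in PB. PB 2 was the highest PB pool of this sum. Singly, however, 3 of the 5 Sertoli markers (*Amh*, *Ptgds* and *Dmrt1*) had PB 2 as the lowest pool. *Sox9* had its highest level in PB 2, at 14.7 CPM. The part of the germ cell share in the values of the crossover genes was not tested beyond the ratios given next.

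Each gene was therefore also expressed per 1000 counts of the 8 germ cell markers. The abundant markers dominate this plain sum. In control 1, *Dazl* alone had 298 of the 640 CPM, and *Gtsf1* had 3.04 CPM. Per 1000 marker counts, *Msh4* had 9.68, 13.2 and 10.4 in control and 13.6, 12.0 and 14.1 in PB. Its PB pools spanned 1.17 times in place of 1.96 times. The spread within PB was also narrower on this scale for *Ccnb1ip1* (1.18 times), *Tex11* (1.19 times), *Cntd1* (1.23 times), *Msh5* (1.39 times) and *Rnf212* (1.58 times). It was wider for *Mlh3* (1.68 times) and *Cdk2* (1.65 times). PB 2 was the highest pool of both on this scale, as it already was for *Mlh3* in CPM. *Tex11* had 76.0, 84.8 and 69.3 in control and 94.5, 80.5 and 96.01 in PB, so PB 2 lay between the control pools. *Rnf212* still had its lowest pool in PB 2, at 3.86 against 3.93 to 5.03 in control. Within control, the spread became wider on this scale for *Msh4*, *Msh5*, *Rnf212*, *Mlh3* and *Cdk2*, with control 2 as the highest control pool. *Msh5* had 24.5, 34.7 and 24.9 in control on this scale, against 15.7, 16.5 and 15.9 CPM. The control spread became narrower for *Ccnb1ip1* and *Cntd1* and changed little for *Tex11*. The exact two-sided permutation test over the 6 pools gave p-values of 0.2 to 1 for the 8 genes, where 0.1 is the smallest that 3 against 3 allows. The groups overlapped for every gene, and 2.53% of all genes had groups without overlap on this scale, 1.29% with PB above control. With *Ddx4* alone as the denominator, *Ccnb1ip1* had 84.6, 81.2 and 68.4 in control and 87.4, 88.0 and 101 in PB without overlap (exact permutation p = 0.1), and the other 7 genes overlapped. On that scale, 2.72% of all genes had groups without overlap, 1.93% with PB above control.

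**Figure D4:**
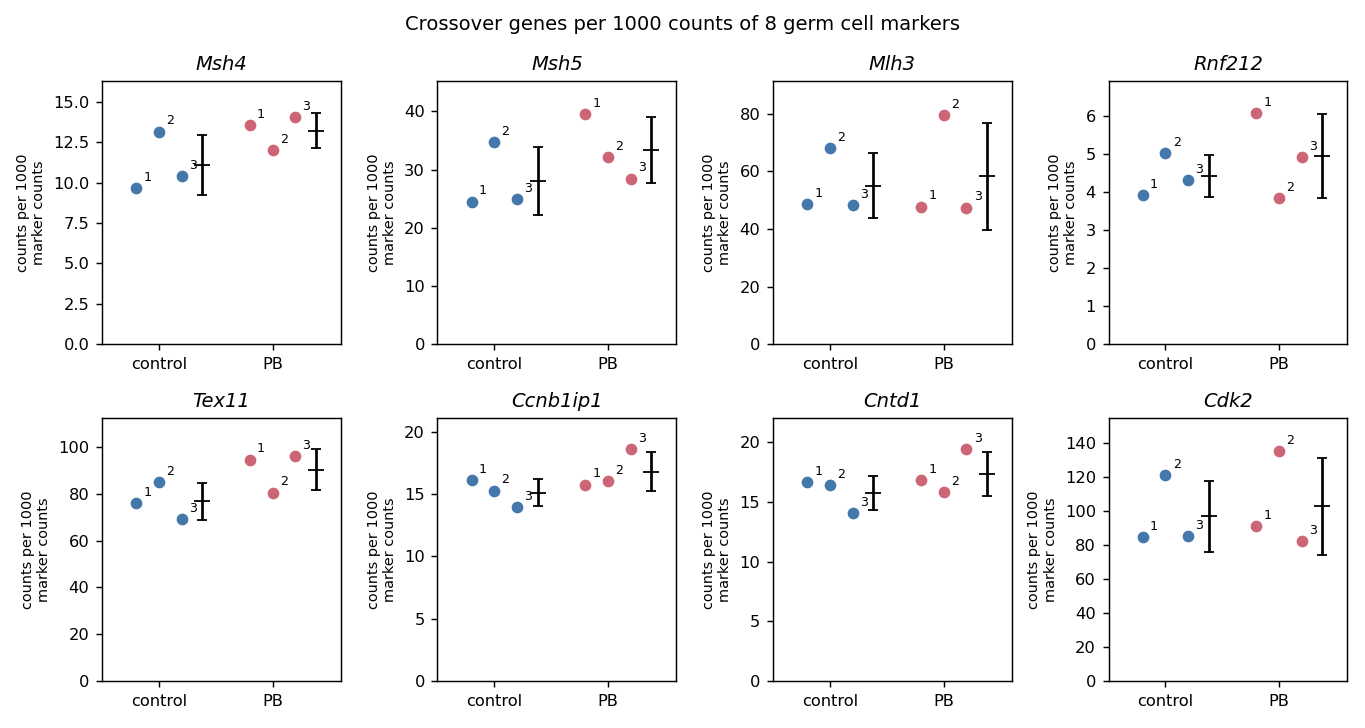
Counts of each gene per 1000 counts of 8 germ cell markers (vertical axis from 0) in each pool, numbered 1 to 3 in control (blue) and PB (red), with the mean and SD of each group as a black bar. The PB pools of *Msh4*, *Tex11*, *Ccnb1ip1* and *Cntd1* lie within 1.23 times of each other, and pool 2 is the highest PB pool of *Mlh3* and *Cdk2*.

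Of the 47 transcripts, 37 had counts and 26 were tested. The edgeR test on transcripts called 0 of them, against 0.0332% of all 51227 transcripts, and 1 had an unadjusted p under 0.05, against 3.56%. It was XR_001782054.1, a minor *Msh5* transcript with 1, 7 and 6 counts in control and 18, 11 and 31 counts in PB (FDR 1.00). This transcript passed the filter at 10 counts through the PB pools only, where it was high. Its unadjusted p is therefore not support for a difference. DESeq2, which called 1.85% of all transcripts, called 0 of the 37 with counts and gave 3 with an unadjusted p under 0.05, against 7.17% of all transcripts, and 2 of these 3 were among the 26. The third, XM_017317285.1 of *Msh5*, had the lowest DESeq2 FDR of the member transcripts, 0.086, with 5, 4 and 31 counts in PB and none in control. Reads of a locus are apportioned between its transcripts by StringTie, and the shares depend on this step. Transcript counts varied far more between pools than gene sums, with a common biological coefficient of variation of 98.4% against 20.9%.

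*Cdk2* had 2 main forms in every pool, and the larger one, NM_016756.4, held 53.2% to 60.8% of its counts. The transcripts with an additional exon of 144 bases (chr10:128699976-128700119) held 45.2% ± 1.65 of its counts in control and 42.1% ± 3.45 in PB (SD, n = 3). The form without it, NM_016756.4, had 3004, 3671 and 2722 counts in control and 3759, 3467 and 3683 counts in PB. Both forms were therefore well sampled. The share with the exon was 43.5% to 46.8% in control. It was 39.2% and 41.2% in PB 1 and PB 2, below every control pool, and 45.9% in PB 3, so the groups overlapped through PB 3 only. *Ccnb1ip1* had 2 transcripts whose shares moved widely within both groups. The assembled transcript with an additional exon of 70 bases (chr14:50790136-50790205) held 26.7%, 61.2% and 59.2% in control and 45.9%, 24.03% and 24.5% in PB. When only known transcripts were counted, which leaves this form out, the log2 fold change of *Ccnb1ip1* was 0.59 (SE 0.45, FDR 0.917) in place of 0.22.

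*Msh5* had the most transcripts, 28, and 10 of these were without any count. The share of its most abundant transcript, NM_013600.3, was 43.5%, 60.4% and 79.9% in control and 62.3%, 49.0% and 28.0% in PB, while the gene sum of the control pools varied by only 1.06 times. *Mlh3* transcripts with an additional exon of 96 bases (chr12:85262767-85262862) held 32.7%, 17.0% and 16.6% in control and 14.9%, 20.7% and 19.0% in PB. The high value of control 1 came from XM_006515703.3, with 620 counts there and 98 to 163 in the other pools. The remaining genes had 1 dominant form. The main transcript held 96.9% of the counts of *Msh4*, 94.4% of *Rnf212* and 91.2% of *Tex11*, and *Cntd1* had a single transcript. An assembled transcript antisense to *Tex11* held at most 1.17% of the counts under that name.

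**Figure D5:**
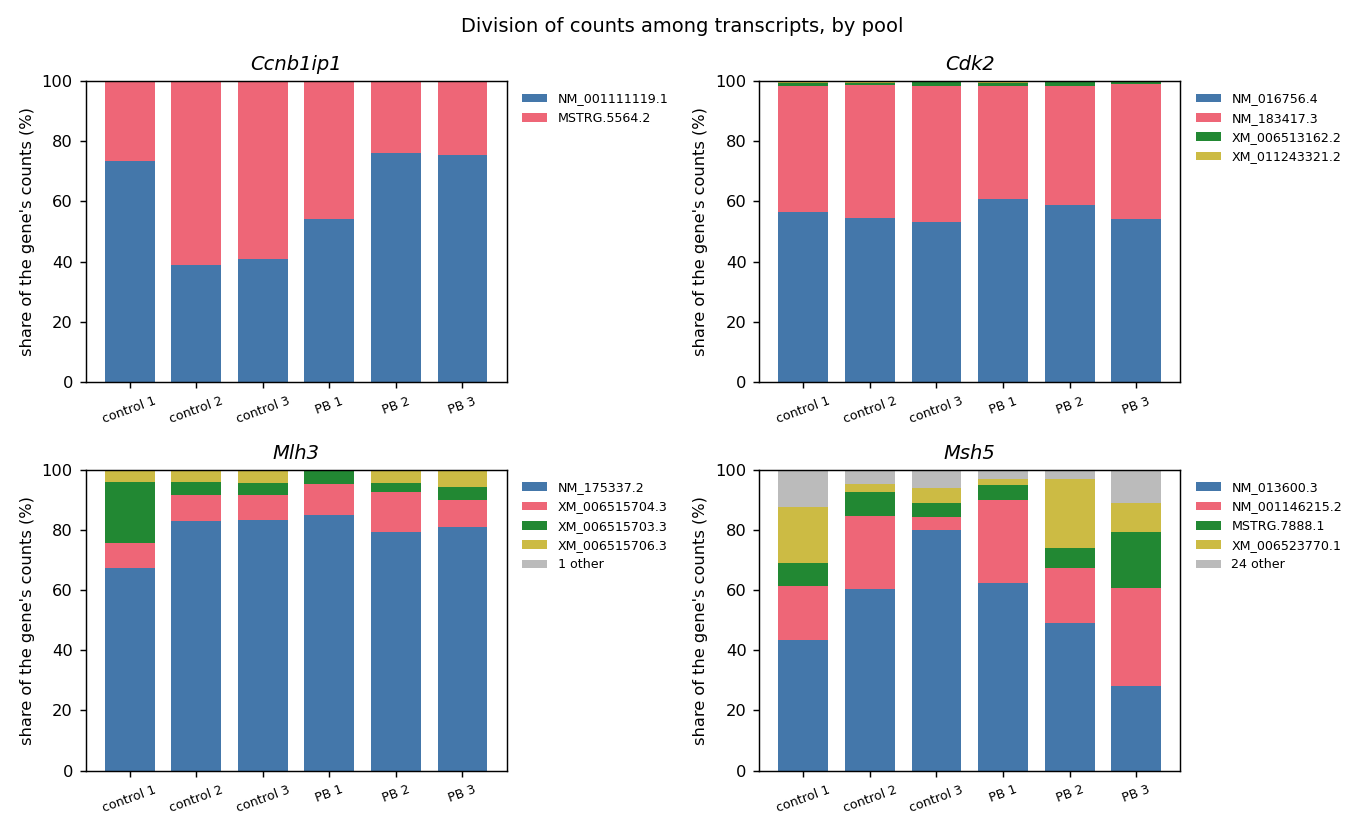
Share of the counts of *Ccnb1ip1*, *Cdk2*, *Mlh3* and *Msh5* held by each transcript in each pool (stacked bars, percent from 0 to 100), with the transcripts beyond the 4 most abundant drawn together in grey. The largest *Cdk2* transcript ranges from 53.2% to 60.8%, whereas the largest *Msh5* transcript ranges from 28.0% to 79.9%.

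The genes with the most similar profile over the 6 pools were ranked by the root mean square difference of centred log2 CPM, as a description. For *Tex11* they were *Stag3*, a meiotic cohesin subunit (0.028), *Taf4b*, a germ cell transcription cofactor (0.030), and *Nabp1*, a single-stranded DNA-binding protein (0.034), where the spread of *Tex11* itself was 0.36. For *Msh4* they were *Zcwpw1*, a reader of histone marks at meiotic breaks (0.043), *Meiob*, a meiotic single-stranded DNA-binding protein (0.047), and *Dock3* (0.049). *Zcwpw1* had 180, 169 and 178 CPM in control and 261, 137 and 272 CPM in PB. *Cntd1* was nearest to *Ccnb1ip1* (0.044), followed by *Naa11* and 1700018B24Rik. *Ccnb1ip1* was nearest to *Trpc1*, *Cntd1* and *Parp12*. These were the only 2 members with another member among their 3 nearest genes. *Msh5* was nearest to *Tnfsf13os*, *Gm41829* and *Kctd3* (0.078 to 0.084), and *Rnf212* to *Fam90a1b*, *Gm40289* and *Fmr1os* (0.090 to 0.098). These absolute differences were larger than those of the other members, at spreads of 0.32 for *Msh5* and 0.43 for *Rnf212* themselves. *Mlh3* was nearest to *Dcaf10*, *Rhoc* and *Btbd1* (0.010 to 0.012), and *Cdk2* to *Acadsb*, *Fam175b* and *Dph6* (0.018 to 0.022), at spreads of only 0.053 and 0.070 of their own.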

How the data were processed

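Embryonic ovary RNA (polyA, stranded libraries) was aligned by the authors to mm10 with HISAT2 2.1.0, assembled with StringTie 1.3.5 on RefSeq and counted per transcript. The deposited matrix holds raw counts for 114412 transcripts and 6 pools, without normalization. The deposited comparison table served for gene names only. Its fold changes and p-values (DESeq2 1.30.0) and its 6 normalized columns were not used. Gene names were missing for 1493 transcripts, with 3.05% to 4.49% of the counts of a pool, and these were left out of gene sums. Groups came from the library titles.

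Counts were summed by gene name and tested on the whole table with edgeR 4.0.16 in R 4.3.3 (TMM, filterByExpr at 10 counts and a total of 15, quasi-likelihood F-test, Benjamini-Hochberg FDR over 19435 genes). Calls required FC ≥ 2 and FDR ≤ 0.05. The SE is the absolute log2 fold change divided by the square root of F, and intervals are 95%. CPM were computed on TMM-scaled libraries. A count of 0 would allow 3 counts, or 0.0238 to 0.0309 CPM, and covers counting error only. DESeq2 1.42.0, other normalization and filters, the replicate block, leave-one-out, known transcripts only, StringTie loci and germ cell marker scaling were alternatives. Replicates are separate pools, and it was not stated which litters they came from, so p-values measure the spread between these pools. Promoters came from the RefSeq table of GRCm38.p6, the sequence of the mm10 build. The scripts were tested on simulated counts. Named genes were the members, the genes of the lists, the 3 nearest profiles of each member and transcripts with at least 10% of the counts of a member; other transcripts were named after their values were seen. One gene of the wider crossover list is not reported here. The members and lists were chosen with earlier results of these data known.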

Additional observations from a re-analysis of the deposited data

How the results depend on the processing

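For the 8 crossover genes, the wider crossover list, the meiotic prophase list and the cell cycle list, 0 genes were called under every alternative run, and 0 of the member transcripts were called. The grouping by locus was run for the 8 genes only. Without PB 2, 2 wider crossover genes and 5 prophase genes had an FDR at or under 0.05 (lowest 0.017), with fold changes under 2. With all pools, the lowest edgeR FDR of each of these lists was 0.888. PB 2 is the pool that was low in these genes, so the values without it are no test of them. The fitted direction of the 8 genes was above 0 under all alternatives except for *Ccnb1ip1* (-0.0016) and *Cntd1* (-0.0026) without PB 3, where the cause was not tested, and those 2 genes had 0.45 and 0.47 without PB 2. In the 6 genes with a low PB 2, the largest log2 fold changes came without that pool, or with known transcripts only for *Ccnb1ip1* (0.59). Leaving out the antisense transcript of *Tex11*, an alternative chosen after seeing the data, changed no call. Without PB 2, an unadjusted p under 0.05 was reached by 6 of 8 crossover genes, 8 of 23 wider crossover genes, 17 of 20 prophase genes and 4 of 15 cell cycle genes, against 0, 0, 0 and 1 with all pools and 12.3% of all genes without PB 2. PB 2 was the lowest pool of those 6 crossover genes, so their p-values without it are a description only. The median log2 difference per germ cell marker counts was 0.15, and 0.11 to 0.24 when 1 pool was left out. With the replicate number as a block, 0 of the 8 genes and 0 of the 26 transcripts were called, and the lowest edgeR FDR of the genes was 0.784. Whether the numbers pair the pools was not settled. The deviations of same-numbered pools correlated at 0.088, 0.12 and -0.020 over genes, against -0.15 to 0.076 for pools of different number. Control 1 and control 2 correlated best with the PB pool of their own number, whereas control 3 correlated best with PB 2. With 3 pools per group, the intervals of the 6 variable genes include both no change and changes above 1.5-fold.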
